A study of Mus musculus with 4 samples.

Results

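Adipocytes store energy as triglyceride in a lipid droplet and release hormones into the blood. Fatty acids reach the cell through the capillary enzyme lipoprotein lipase or are made from citrate inside it, are joined to a glycerol backbone, and leave again when lipases open the droplet. *Pparg* and *Cebpa* drive this programme during differentiation. In mouse skin, adipocytes lie in a layer beneath the reticular dermis, and sebaceous glands use many of the same enzymes to make the lipids of sebum.

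A list of 34 genes of this programme, comprising regulators, hormones, lipid droplet proteins, transporters and enzymes of lipid synthesis and breakdown, was followed in dermal cells of mouse skin, out of 18193 genes named on the array. The cells came from female C57BL/6 mice, 10 weeks old by the labels, and were studied in 4 conditions with 1 array each. The first was ventral (abdominal) skin of pregnant mice at 15 days post coitum (dpc) injected intradermally with PP2, an inhibitor of Src family kinases. The others, all injected with the vehicle DMSO, were ventral skin of pregnant mice at 15 dpc, ventral skin of virgins, and the dorsal skin of pregnant animals at 15 dpc. Injections ran for 4 days in all of them, so that the vehicle arrays also report on injected skin. The titles of the pregnant samples give 15 dpc and their descriptions 16 dpc. By the study's methods the fat under the skin was cut away before the dermal cells were released with collagenases, hyaluronidase and DNase, and the suspension was strained and spun down. How many mice contributed RNA to each array was not given in the sources used here. In such bulk RNA, fewer cells of a type and less RNA per cell cannot be told apart.

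With 1 array per condition there was no replicate check, no error and no p-value, and each difference below compares 2 arrays, not 2 populations of mice. Where a gene had several probe sets, the one brightest on average (mean of log2 signals) stood for it, and a gene counted as higher or lower when the ratio of signals was over 2-fold and the brighter array called that probe set present. All 3 comparisons share the abdominal DMSO array, so a high or low value there enters each of them. The number of arrays limits the precision. Of 45101 probe sets on each array, 58.4% to 59.7% were called present. The ratio of 3′ to 5′ *Gapdh* signal, which goes up as RNA degrades, was 5.84 on the PP2 array, 1.41 on the abdominal DMSO array, 2.51 on the virgin array and 2.97 on the dorsal array. The same ratio of actin was 2.70 with PP2, 2.03 on the abdominal DMSO array, 2.64 on the virgin array and 4.14 on the dorsal array. The part of RNA quality in the results was not tested.

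Of the 34 genes, 31 were named by 63 probe sets of their own, and 18 of them by more than 1. *Cfd*, *Plin1* and *Acsl1* were not analysed here. The chosen probe set was called present on at least 1 array for 25 genes and on all 4 arrays for 22. For 6 genes it was called present on none: *Lep* (leptin), *Retn* (resistin), *Cidec*, *Mlxipl*, *Pck1* and *Ucp1*. *Adipoq*, *Fabp4*, *Pparg* and *Plin4* were thus present on every array, whereas *Lep*, *Retn* and *Cidec* were not called present on any. *Fabp4* is also on the endothelial and macrophage lists used below, and *Pparg* on the sebaceous gland list.

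Promoter sequence is shown for 3 genes on which the comparisons turn. *Adipoq* (adiponectin, a hormone) and *Aqp7* (a glycerol channel) had their highest signal on the abdominal DMSO array, and *Elovl6* (a fatty acid elongase) differed between abdominal and dorsal skin. The 250 bases upstream of the RefSeq transcription start (GRCm38.p6) run 5′ to 3′ on the gene's own strand at chr16:23146286-23146535 (plus strand) for *Adipoq*, chr4:41048137-41048386 (minus strand) for *Aqp7* and chr3:129532136-129532385 (plus strand) for *Elovl6*. Capitals mark the NF-Y box in *Adipoq* and the nuclear receptor half-site in *Aqp7* and *Elovl6*.
Adipoq: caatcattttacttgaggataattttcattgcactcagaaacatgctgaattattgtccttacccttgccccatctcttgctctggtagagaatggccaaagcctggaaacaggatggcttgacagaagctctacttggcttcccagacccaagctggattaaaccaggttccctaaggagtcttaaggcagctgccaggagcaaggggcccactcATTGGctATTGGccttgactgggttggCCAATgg
Aqp7: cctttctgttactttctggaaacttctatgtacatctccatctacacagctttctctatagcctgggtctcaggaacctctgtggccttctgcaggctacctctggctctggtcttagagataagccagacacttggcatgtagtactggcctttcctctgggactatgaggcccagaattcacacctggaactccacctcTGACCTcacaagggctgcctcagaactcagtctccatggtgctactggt
Elovl6: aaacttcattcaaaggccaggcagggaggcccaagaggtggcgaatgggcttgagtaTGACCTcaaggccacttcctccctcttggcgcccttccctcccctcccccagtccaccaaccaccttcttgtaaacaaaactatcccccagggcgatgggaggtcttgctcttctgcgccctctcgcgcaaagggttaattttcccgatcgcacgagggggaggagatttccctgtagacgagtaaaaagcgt
The 6 motifs searched on both strands did not overlap in these 3 windows. The *Adipoq* promoter held 3 NF-Y boxes (CCAAT), whose first bases lay at -34, -27 and -7 relative to the start. The half-site AGGTCA, the unit that receptors such as PPARγ bind in pairs, began at -49 in *Aqp7* and at -193 in *Elovl6*, on the opposite strand in both.

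Promoters were at hand for 25 of the 34 genes, 33 promoters in all, since some genes have several starts. Beside each motif stands its share of all 32851 mouse promoters of the same length. The nuclear receptor half-site (AGGTCA) lay in 10 of the 33 and in 14.0% of all promoters. Those 10 belonged to *Acly*, *Adig*, *Aqp7*, *Cd36*, *Elovl6*, *Gpam*, *Pparg* and *Ucp1*, some of them with several starts. Windows of *Aqp7* overlap, and a site that they share stood at -49 or -223, by the start used, so it was counted for both. The NF-Y box (CCAAT) lay in 10 of the 33 and in 33.8% of all. A C/EBP motif (TTGCNNAA) lay in 4 of the 33, those of *Cidec*, *Lep*, *Plin1* and *Pparg*, and in 9.56% of all. The E-box CACGTG, which carbohydrate and sterol response factors use, was found for *Lipe* and *Mlxipl*, 2 of the 33, and in 6.02% of all. The sterol response motif TCACCCCA was found for *Acsl1* and *Gpam*, 2 of the 33, and in 1.34% of all, and TATAAA for *Cebpa* and *Pparg*, 2 of the 33, and in 12.4% of all. A match is a run of letters, and no binding was measured.

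**Figure D1:**
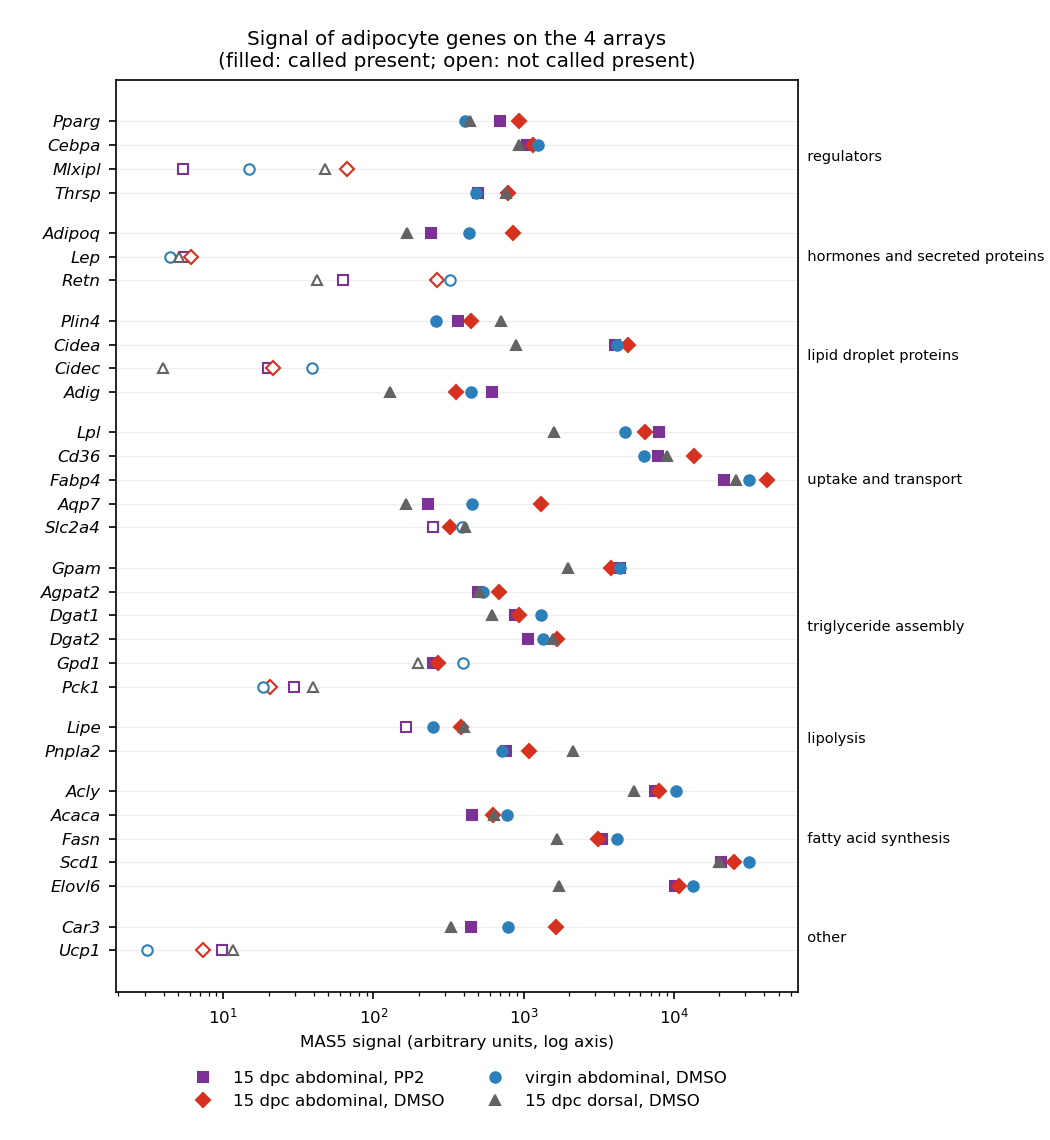
Signal of the 31 genes with a probe set of their own, 1 row per gene by role, on a log axis in arbitrary units. Each symbol is 1 array (squares, 15 dpc abdominal PP2; diamonds, 15 dpc abdominal DMSO; circles, virgin abdominal DMSO; triangles, 15 dpc dorsal DMSO), filled where the probe set was called present. *Adipoq*, *Aqp7* and *Car3* stand apart on the abdominal DMSO array, and *Cidea*, *Adig*, *Lpl* and *Elovl6* stand lowest on the dorsal array.

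*Pparg*, the nuclear receptor that switches on the adipocyte programme, reached 694 (MAS5 signal, arbitrary units, as all signals below) on the PP2 array, 936 on the abdominal DMSO array, 405 on the virgin array and 437 on the dorsal array. Both arrays of pregnant abdominal skin were above the virgin and dorsal arrays. Pregnant abdominal skin exceeded virgin skin 2.31-fold and dorsal skin 2.14-fold in *Pparg*, and *Pparg* was 1.35-fold lower with PP2 than with DMSO. *Cebpa*, the transcription factor that works alongside *Pparg*, had 1050 with PP2, 1154 on the abdominal DMSO array, 1247 on the virgin array and 931 on the dorsal array. These 4 signals of *Cebpa* lay within 1.5-fold of each other. *Thrsp*, a nuclear protein that goes with lipogenesis, had 495 with PP2, 792 on the abdominal DMSO array, 481 on the virgin array and 764 on the dorsal array, so that the abdominal DMSO and dorsal arrays were the high pair by this probe set. A second one of *Thrsp* had 115 with PP2, 233 on the abdominal DMSO array, 158 on the virgin array and 148 on the dorsal array, without that pair. *Mlxipl*, a glucose-responsive regulator of lipogenic genes, was absent on all arrays.

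*Adipoq* was the 1 hormone gene of the list called present. Its signal was 239.8 on the PP2 array, 850.5 on the abdominal DMSO array, 434 on the virgin array and 168 on the dorsal array. The abdominal DMSO array was the high one, with PP2 and dorsal at the low end. *Adipoq* was 3.55-fold lower with PP2 and 5.05-fold higher on abdominal than on dorsal skin, and at 1.96-fold it stayed just under 2-fold over the virgin array, which it passed with the arrays set to one median (1.01 on the log2 scale). *Retn* had 62.4 with PP2, 264 on the abdominal DMSO array, 323 on the virgin array and 42.3 on the dorsal array, with a marginal call on the virgin array and absent calls elsewhere, so no fold is given. *Lep* lay between 4.40 and 6.10 on the 4 arrays and was absent on each.

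Among the proteins of the lipid droplet, *Cidea*, which lets droplets fuse and is expressed in brown fat and in sebaceous glands, had 4047 with PP2, 4981 on the abdominal DMSO array, 4190 on the virgin array and 883 on the dorsal array. The 3 arrays of abdominal skin stood together and the dorsal array below them, with *Cidea* 5.64-fold higher on abdominal than on dorsal skin. *Adig* (adipogenin), a small membrane protein of adipocytes, had 619.8 with PP2, 354 on the abdominal DMSO array, 445 on the virgin array and 129 on the dorsal array. It was 2.75-fold higher on abdominal than on dorsal skin, and it was the member with the highest ratio of PP2 to DMSO, at 1.75. *Plin4*, a perilipin of the droplet coat, ran the other way over body site, with 367 with PP2, 449 on the abdominal DMSO array, 263 on the virgin array and 711 on the dorsal array. Its highest signal was the dorsal one, 1.58-fold above the abdominal DMSO array. *Cidec*, which enlarges droplets in white fat, was absent on all arrays.

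By the probe sets standing for the 25 genes called present, *Aqp7*, a gene of uptake and transport, had the largest ratio in each comparison. By the median over all detected probe sets, *Cd36* (log2 ratio 1.54), *Pparg* (1.21) and *Car3* (1.19) exceeded *Aqp7* (1.11) in pregnant over virgin skin. In abdominal over dorsal skin *Elovl6* (2.665) and *Cidea* (2.496) then exceeded *Aqp7* (2.385). *Aqp7*, the channel through which glycerol leaves adipocytes, had 229.9 on the PP2 array, 1306 on the abdominal DMSO array, 457 on the virgin array and 164 on the dorsal array. The abdominal DMSO array was alone at the top, 2.86-fold above virgin and 7.98-fold above dorsal skin, and *Aqp7* was 5.68-fold lower with PP2. *Cd36*, a fatty acid translocase that capillaries and macrophages also carry, had 7815 with PP2, 13722 on the abdominal DMSO array, 6303 on the virgin array and 9041 on the dorsal array. It was 2.18-fold higher on the pregnant abdominal than on the virgin array, 1.52-fold above dorsal skin and 1.76-fold lower with PP2. *Lpl*, the lipase that frees fatty acids from circulating lipoproteins, had 7944 with PP2, 6402 on the abdominal DMSO array, 4722 on the virgin array and 1596 on the dorsal array. Abdominal skin was 4.01-fold above dorsal skin in *Lpl*, and the PP2 array 1.24-fold above the abdominal DMSO array. Pregnant abdominal skin was 1.36-fold above virgin skin by this probe set and 2.35-fold by a second one. *Slc2a4*, the insulin-responsive glucose transporter, had 249 with PP2, 322 on the abdominal DMSO array, 387 on the virgin array and 406 on the dorsal array, absent on the first and the third.

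*Fabp4*, the fatty acid carrier of the adipocyte cytosol, had 21517 on the PP2 array, 41761 on the abdominal DMSO array, 31579 on the virgin array and 26062 on the dorsal array. On the abdominal DMSO array no probe set of the whole array was brighter. By this probe set it was 1.94-fold lower with PP2, 1.32-fold above virgin and 1.60-fold above dorsal skin, each within 2-fold. The other probe sets of *Fabp4* gave different sizes in the same directions. One had 518 with PP2, 1900 on the abdominal DMSO array, 422 on the virgin array and 194 on the dorsal array, that is, 3.67-fold lower with PP2, 4.51-fold above virgin and 9.80-fold above dorsal skin. Another had 848 with PP2, 2892 on the abdominal DMSO array, 984 on the virgin array and 631 on the dorsal array. The third, at 14402 with PP2, 23050 on the abdominal DMSO array, 22321 on the virgin array and 19538 on the dorsal array, moved least. The 2 probe sets with signals over 10000 thus gave the smallest ratios of the 4, and which of them is closest to the RNA was not tested.

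By the probe sets that stand for them, the enzymes that join fatty acids to glycerol stayed within 2-fold in every comparison of the deposited signals. *Gpam*, which adds the first fatty acid, had 4365 with PP2, 3827 on the abdominal DMSO array, 4354 on the virgin array and 1966 on the dorsal array. The dorsal array was the low one, with abdominal skin 1.95-fold above it, and past 2-fold with the arrays set to one median (1.04 on the log2 scale). *Agpat2*, which adds the second fatty acid, ranged from 494 with PP2 to 684 on the abdominal DMSO array. *Dgat1* and *Dgat2* close the triglyceride. *Dgat2* had 1067 with PP2, 1681 on the abdominal DMSO array, 1347 on the virgin array and 1567 on the dorsal array, and was 1.58-fold lower with PP2, or 2.20-fold by its second probe set. *Dgat1* was brightest on the virgin array, at 1307, and dimmest on the dorsal array, at 619.6. *Gpd1*, which supplies glycerol 3-phosphate, had 249 with PP2, 267 on the abdominal DMSO array, 397 on the virgin array and 199 on the dorsal array, called marginal on the virgin and absent on the dorsal array, while a second probe set was present on the virgin array too, at 113. *Pck1*, which feeds glycerol synthesis in fat, was absent on all 4 arrays.

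Both lipases of the list had their highest deposited signal in dorsal skin, *Lipe* by 1.05-fold over abdominal skin, an order that turned with the arrays set to one median. *Lipe* (hormone-sensitive lipase) had 166 on the PP2 array, where it was called absent, 384 on the abdominal DMSO array, 251 on the virgin array and 402 on the dorsal array. It was at least 2.32-fold lower with PP2. *Pnpla2* (adipose triglyceride lipase) had 761 with PP2, 1086 on the abdominal DMSO array, 718 on the virgin array and 2125 on the dorsal array. The dorsal signal of *Pnpla2* was 1.96-fold above the abdominal one, and passed 2-fold under quantile normalization.

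By the probe sets that stand for them, the 5 enzymes of fatty acid synthesis had lower signals on the pregnant abdominal than on the virgin array, each within 2-fold, with log2 ratios from -0.41 to -0.30. For *Acly* the direction turned with the probe set: 2 others, present on all arrays, were 1.06-fold and 1.25-fold higher in pregnant skin. Another probe set of *Elovl6* was 2.93-fold lower. *Elovl6*, which lengthens palmitate, had 10228 with PP2, 10900 on the abdominal DMSO array, 13442 on the virgin array and 1719 on the dorsal array. It was 6.34-fold higher on abdominal than on dorsal skin, while its 3 signals in abdominal skin lay close together. *Fasn*, the fatty acid synthase, had 3321 with PP2, 3150 on the abdominal DMSO array, 4184 on the virgin array and 1672 on the dorsal array, again with the dorsal array lowest. *Scd1*, the stearoyl-CoA desaturase, had 20560 with PP2, 25212 on the abdominal DMSO array, 31523 on the virgin array and 19940 on the dorsal array. A second probe set of *Scd1* had 4455 with PP2, 4457 on the abdominal DMSO array, 4758 on the virgin array and 1404 on the dorsal array, 3.17-fold higher on abdominal than on dorsal skin where the first gave 1.26-fold. *Acly*, which makes cytosolic acetyl-CoA, had 7487 with PP2, 7959 on the abdominal DMSO array, 10395 on the virgin array and 5416 on the dorsal array. *Acaca*, the acetyl-CoA carboxylase, had 451 with PP2, 626 on the abdominal DMSO array, 777 on the virgin array and 633 on the dorsal array.

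*Car3*, a carbonic anhydrase abundant in white adipocytes and in slow muscle, had 447 on the PP2 array, 1633 on the abdominal DMSO array, 783 on the virgin array and 327 on the dorsal array. As with *Adipoq* and *Aqp7*, the abdominal DMSO array was alone at the top. *Car3* was 3.66-fold lower with PP2, 2.08-fold above virgin and 4.99-fold above dorsal skin. A second probe set of *Car3* had 72.6 with PP2, 261 on the abdominal DMSO array, 104 on the virgin array and 74.5 on the dorsal array, 3.59-fold lower with PP2. *Ucp1*, the uncoupling protein of brown fat, was absent on all arrays.

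**Figure D2:**
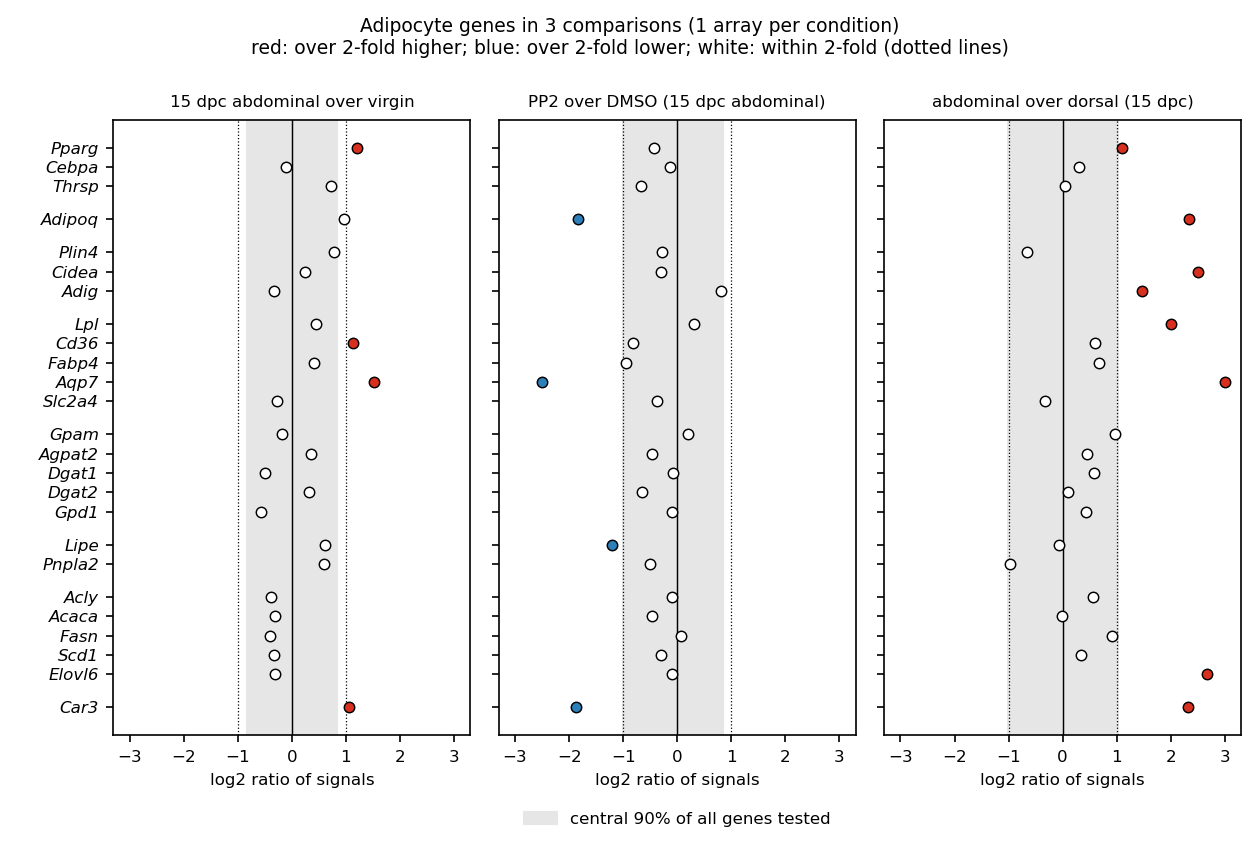
Log2 ratio of signals for the 25 genes called present on at least 1 array, 1 row per gene, in the 3 comparisons (left, 15 dpc abdominal over virgin; middle, PP2 over DMSO; right, abdominal over dorsal). Grey bands hold the central 90% of all genes tested, dotted lines mark 2-fold, and red and blue points are over 2-fold higher and lower: 4 red on the left, 4 blue in the middle and 8 red on the right.

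The comparison of pregnant with virgin abdominal skin asks what differed with gestation. *Pparg*, *Aqp7*, *Cd36* and *Car3* were higher in pregnant skin, 4 of the 25 genes, and 0 were lower. Over all 12744 genes tested, 3.41% were higher and 3.55% lower by the same rule. The median log2 ratio of the list was 0.32, against 0.02 over all genes, and 14 of the 25 lay above 0, where 52.8% of all genes did. That median turned to -0.11 over the 17 genes left when those also on the fixed muscle, endothelial, macrophage and sebaceous lists (*Pparg*, *Cd36*, *Car3*, *Fabp4*, *Lpl*, *Scd1*, *Cidea* and *Slc2a4*) were taken out, and *Aqp7* was then the 1 gene past 2-fold. The call of *Aqp7* rests on a probe set ending in _x_at, and its other detected probe set gave at least 1.63-fold. Without probe sets ending in _x_at, _s_at or _a_at, *Car3*, *Cd36* and *Fabp4* were higher, 3 of 24 genes (3.57% of all genes). By role, the regulators had a median of 0.72 (3 genes) and the lipases 0.61 (2 genes). Fatty acid synthesis stood at -0.32 and triglyceride assembly at -0.19 (5 genes each).

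The comparison of PP2 with DMSO asks what differed in pregnant abdominal skin under the inhibitor. *Adipoq*, *Aqp7*, *Lipe* and *Car3* were lower with PP2, 4 of the 25 genes, against 4.89% of all 12955 genes tested. None of the 25 was over 2-fold higher (0, against 3.74% of all genes). The median log2 ratio of the list was -0.37, against -0.00381 over all genes, and 21 of the 25 lay below 0, where 50.4% of all genes did. With the arrays set to one median of their present signals 17 of 25 lay below 0 (40.3% of all genes), since *Acly*, *Dgat1*, *Elovl6* and *Gpd1* then turned above it, and with quantile normalization 20 did (44.8% of all genes), *Gpd1* turning. *Lipe* fell just short of 2-fold under quantile normalization, at -0.99 on the log2 scale. The 5 genes of uptake and transport had a median of -0.81, and the 5 enzymes of fatty acid synthesis one of -0.09.

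The comparison of abdominal with dorsal skin, both of pregnant mice after DMSO, asks what differed with body site. *Pparg*, *Adipoq*, *Cidea*, *Adig*, *Lpl*, *Aqp7*, *Elovl6* and *Car3* were higher in abdominal skin, 8 of the 25 genes, against 5.25% of all 12808 genes tested. None was over 2-fold lower (0, against 4.96% of all genes). The median log2 ratio of the list was 0.58, against 0.04 over all genes, and 20 of the 25 lay above 0 (53.4% of all genes), or 22 of 25 with the arrays set to one median (59.7% of all genes), where *Acaca* and *Lipe* changed sign. By role, only the lipases had a median below 0, at -0.52 over 2 genes, *Lipe* among them. The 3 lipid droplet proteins tested had a median of 1.46 and ran from -0.66 to 2.50.

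The order of the 4 arrays adds what pairs cannot show. Of the 25 genes, 10 were brightest on the abdominal DMSO array, where 22.1% of 13375 genes were, and 8 on the virgin array (21.6% of all genes). The PP2 array was brightest for 3 (28.6% of all genes), *Adig*, *Gpam* and *Lpl*, and the dorsal array for 4 (27.7% of all genes), *Lipe*, *Plin4*, *Pnpla2* and *Slc2a4*. The dorsal array was dimmest for 14 genes, against 30.8% of all genes, and the abdominal DMSO array for 0, against 19.1%. The PP2 array was dimmest for 6 (28.1% of all genes) and the virgin array for 5 (21.9% of all genes). The 8 genes brightest in virgin skin were the 5 enzymes of fatty acid synthesis, *Cebpa*, *Dgat1* and *Gpd1*, the last with a marginal call there. A second probe set of *Acly* was instead brightest on the abdominal DMSO array, with 6321 there against 5953 on the virgin array. So was another of *Gpd1*, with 123 there against 113 on the virgin array. A further one of *Gpd1* was brightest with PP2, at 143 against 78.2 on the virgin array. Another probe set of *Acaca* was brightest on the dorsal array, at 95.2 against 62.8 on the virgin array.

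**Figure D3:**
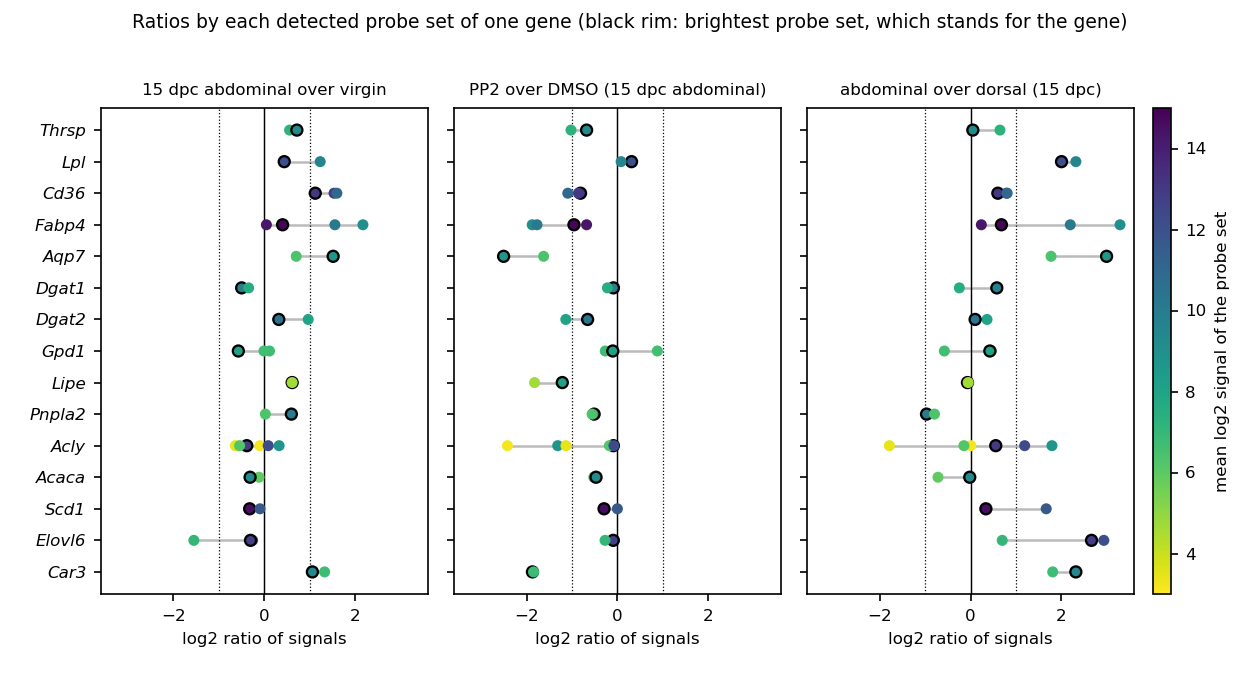
Log2 ratio of signals by each detected probe set, for the 15 genes with more than 1, in the same 3 comparisons. Each point is a probe set coloured by its mean log2 signal, a black rim marks the one that stands for the gene, and grey lines join the probe sets of a gene. *Car3* and *Cd36* held together, while *Fabp4* ran from 1.18-fold to 9.80-fold and *Acly* from 1.47-fold to 3.46-fold in abdominal over dorsal skin over probe sets present on both arrays. Some of the palest points were called present on neither or 1 of the 2 arrays.

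How far the values hold between probe sets of one gene differed from gene to gene. The 2 detected probe sets of *Aqp7* were 5.68-fold and 3.08-fold lower with PP2, and those of *Car3* 3.66-fold and 3.59-fold lower. The dimmer one of *Aqp7*, without a present call on the virgin or dorsal array, was at least 1.63-fold above virgin and at least 3.42-fold above dorsal skin. The 3 of *Cd36* were 2.18-fold to 3.03-fold higher in pregnant than in virgin skin. *Lpl* had 2, which were 1.36-fold and 2.35-fold above virgin and 4.01-fold and 4.99-fold above dorsal skin. For *Elovl6*, 2 probe sets were 6.34-fold and 7.65-fold above dorsal skin and the third, with signals from 73.5 to 349.6, 1.62-fold.

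Genes of other cells that share parts of this programme were read from fixed lists. Of the sebaceous gland list, 9 genes that are not among the 34 were tested in the comparison of body sites, with a median log2 ratio of 1.38. In abdominal skin 6 were higher (5.25% of all genes) and 0 lower (4.96%). They were led by *Scd3* (a desaturase, 6.66-fold), *Far2* (a fatty acyl reductase of wax synthesis, 5.60-fold) and *Elovl3* (an elongase, 4.61-fold). *Scd3* had 3644 with PP2, 2444 on the abdominal DMSO array, 2633 on the virgin array and 367 on the dorsal array, again with the dorsal array lowest. The summed signal of the 10 such genes was 39518 with PP2, 36504 on the abdominal DMSO array, 38319 on the virgin array and 14931 on the dorsal array, and all 10 were present on at least 1 array. Between pregnant and virgin skin 0 of 9 were past 2-fold (3.41% of all genes were higher and 3.55% lower). With PP2 1 of 10, *Acsbg1*, was lower (4.89% of all genes). The part of the glands in the dorsal values of *Cidea*, *Elovl6* and *Lpl* was not tested.

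Most hair follicle genes were high on the same array as *Adipoq*, *Aqp7* and *Car3*. For the 11 on the list, the summed signal was 4005 with PP2, 13861 on the abdominal DMSO array, 1984 on the virgin array and 2489 on the dorsal array, and all 11 were present on at least 1 array. In pregnant over virgin skin 8 of 10 were higher (3.41% of all genes) and with PP2 7 of 11 were lower (4.89%). In abdominal over dorsal skin 8 of 10 were higher (5.25%). *Krt25*, an inner root sheath keratin, had 635 with PP2, 3524 on the abdominal DMSO array, 19.6 on the virgin array and 70.4 on the dorsal array. *Lef1*, a transcription factor of the hair matrix and dermal papilla, ran the other way, with 1558 with PP2, 556 on the abdominal DMSO array, 1100 on the virgin array and 1389 on the dorsal array, 2.80-fold higher with PP2 and 2.50-fold lower in abdominal than in dorsal skin. The part of the follicles in the values of the adipocyte genes was not tested.

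*Cd36*, *Fabp4* and *Lpl* are also on the endothelial list. The 8 of its genes that are not among the 34 had a median log2 ratio of -0.56 with PP2. *Pecam1*, a junction protein, was 3.31-fold lower and *Gpihbp1*, which anchors lipoprotein lipase on capillaries, 2.07-fold lower. They were 2 of the 8 (4.89% of all genes), and 0 were higher (3.74%). The junction gene *Cdh5* (log2 ratio -0.23) and *Emcn* (0.00379) moved less. The summed signal of these 8 endothelial genes was 26831 with PP2, 38322 on the abdominal DMSO array, 31488 on the virgin array and 31019 on the dorsal array. All 11 genes of that list were present on at least 1 array, and the part of endothelial RNA in *Cd36* and *Fabp4* was not tested. Of 8 macrophage genes outside the 34, 4 were higher in abdominal than in dorsal skin (5.25% of all genes), led by *Csf1r* (2.84-fold). *Lyz2* ran the other way, with 1443 on the abdominal DMSO array and 2301 on the dorsal array. In pregnant over virgin skin 3 of the 8 were lower (3.55% of all genes), with *Cd163* at 2.32-fold. The summed signal of the 8 was 4159 with PP2, 3718 on the abdominal DMSO array, 5255 on the virgin array and 3423 on the dorsal array. *Lyz2* was the brightest of them on each array.

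*Car3* and *Slc2a4* are also muscle genes. Of the 13 muscle genes, *Ckm*, *Myh2*, *Myh4*, *Tnni2*, *Atp2a1* and *Mb* were called present on 0 arrays. *Mylpf*, a myosin light chain, was present on all 4, *Myh1* and *Acta1* on 3 each, and *Tnnt3* and *Pygm* on 1 each. The 11 outside the 34, those without a present call included, summed to 482 with PP2, 589 on the abdominal DMSO array, 742 on the virgin array and 577 on the dorsal array, and the part of muscle RNA in *Car3* and *Slc2a4* was not tested.

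Epidermal keratinocyte genes were present in these dermal cells, all 7 of the list, with summed signals of 37350 with PP2, 65443 on the abdominal DMSO array, 51464 on the virgin array and 90946 on the dorsal array. *Lor* (loricrin) and *Flg* (filaggrin), of the outer epidermis, were 34.8-fold and 14.5-fold lower in abdominal than in dorsal skin. They were 2 of the 7 (4.96% of all genes), and 0 were higher (5.25%). *Krt14* lay above 0 in that comparison, at a log2 ratio of 0.19. *Krt1* and *Krt5* were 2.26-fold and 2.09-fold lower with PP2, 2 of the 7 (4.89% of all genes), and 0 were higher (3.74%). *Lor* (log2 ratio 0.02) and *Flg* (0.26) lay above 0 with PP2. The part of epidermal RNA in the adipocyte values was not tested.

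**Figure D4:**
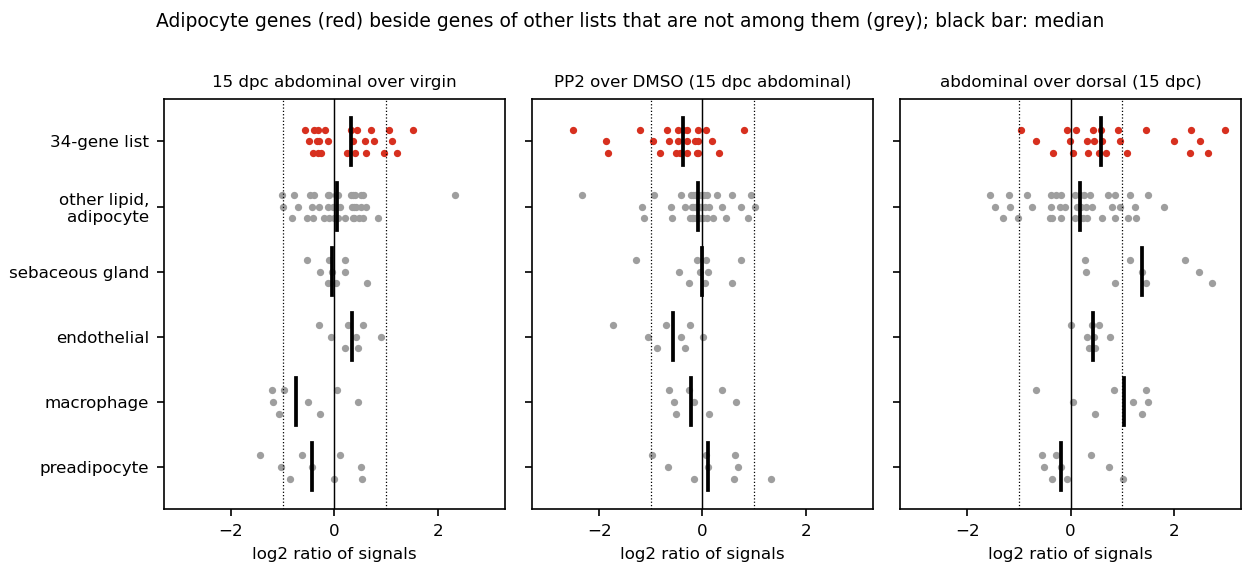
Log2 ratio of signals for the 25 tested adipocyte genes (red) and for genes of 5 other lists that are not among them (grey), in the 3 comparisons (left, 15 dpc abdominal over virgin; middle, PP2 over DMSO; right, abdominal over dorsal). Each point is a gene, black bars are medians and dotted lines mark 2-fold; the sebaceous gland median is 1.38 and the adipocyte median 0.58 on the right.

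Other genes of adipocyte lipid metabolism, 44 by the fixed list, were read beside the 34. In pregnant over virgin skin 1 of 40 was higher and 1 lower (3.41% and 3.55% of all genes). The higher one was *Angptl4*, a secreted inhibitor of lipoprotein lipase, with 4119 on the PP2 array, 4181 on the abdominal DMSO array, 825 on the virgin array and 7067 on the dorsal array. All 3 arrays of pregnant mice were thus above the virgin array, and *Angptl4* was 5.07-fold higher in pregnant than in virgin abdominal skin. *Nr1h3* (the oxysterol receptor LXRα) was 2.01-fold lower.

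With PP2, 3 of 41 other lipid genes were lower and 1 higher (4.89% and 3.74% of all genes). *Fads2*, a fatty acid desaturase, had 46.9 on the PP2 array, 235 on the abdominal DMSO array, 255 on the virgin array and 205 on the dorsal array, and was the largest difference of that list at 5.02-fold lower. *Rxra*, the partner receptor of *Pparg*, was 2.25-fold lower, and *Slc25a1*, the mitochondrial citrate carrier, 2.18-fold lower. *Lipa*, the lysosomal acid lipase, was 2.03-fold higher.

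Between abdominal and dorsal skin 6 of 41 were higher and 6 lower (5.25% and 4.96% of all genes), and the median log2 ratio was 0.18. *Acss2* (acetyl-CoA synthesis, 3.52-fold) led those higher in abdominal skin, with 3198 on the PP2 array, 3683 on the abdominal DMSO array, 3959 on the virgin array and 1046 on the dorsal array. *Acacb*, the carboxylase isoform of mitochondria, was 2.83-fold higher. *Klf15*, a transcription factor induced by fasting and glucocorticoids, was 2.94-fold lower in abdominal skin, and *G0s2*, the inhibitor of the lipase encoded by *Pnpla2*, 2.76-fold lower. *G0s2* was chosen after its values were seen: it had 594 with PP2, 309 on the abdominal DMSO array, 430.0 on the virgin array and 854 on the dorsal array, and like *Pnpla2* was brightest on the dorsal array.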

How the data were processed

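Each array was an Affymetrix Mouse Genome 430 2.0 array of dermal cell RNA. For 45101 probe sets the deposited files hold a detection call and a MAS5 signal, which is a linear intensity. The authors made them with Affymetrix Expression Console (version 1 in the submitters' processing notes), and every array had a 2% trimmed mean of 500.0. The signals were used as deposited, and the table of all arrays differed from the single files for 0 probe sets. No coordinates came from the files.

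Conditions were taken from the sample labels. Probe sets with 1 symbol in the platform annotation (34945, against 932 with several) were named, and 34741 matched the RefSeq gene table by Entrez identifier, changing 0 symbols. Where the dimmer array did not call a probe set present, the fold is a bound ("at least") against the larger of its signal and the dimmest present signal of that array. A gene entered a comparison when present on at least 1 of its 2 arrays. With 1 array per condition no test was run. All 34 genes are named, and of the other lists up to 3 genes past 2-fold per comparison with the largest log2 ratios. Not every such gene is named, and *G0s2*, *Lipa*, *Lef1* and *Lyz2* were added after their values were seen. The members and lists were chosen with earlier results of these data known. Alternatives covered scaling, the detection filter, the fold and the choice of probe set. Promoters and motifs were read from RefSeq tables. Python 3.11.15, numpy 2.4.6 and pandas 2.3.3 were used.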

Additional observations from a re-analysis of the deposited data

How the results depend on the processing

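No paired analysis was possible because each condition had 1 array. Counts of genes over 2-fold stayed within 1.5 times their main value except as follows. In pregnant over virgin skin, 4 higher became 1 of 17 without the genes shared with other cell types' lists (3.41% of all genes). The 4 became 9 at 1.5-fold (9.86% of all genes) and 0 at 3-fold (1.18%). Where any probe set of a gene could count, 1 (*Elovl6*) was lower (6.34% of all genes). In PP2 over DMSO, 4 lower became 8 at 1.5-fold (12.8% of all genes), with 1 higher (9.74%), and 9 by any probe set (12.6%). In abdominal over dorsal skin, 8 higher became 4 of 17 without the shared genes (5.25% of all genes). There 0 lower became 2 at 1.5-fold (11.9% of all genes) and 1 (*Pnpla2*) with quantile normalization (4.54%).

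The median log2 ratio in pregnant over virgin skin (0.32) was 0.36 with arrays scaled to one median, 0.28 with quantile normalization, 0.31 over all detected probe sets, 0.17 without probe sets ending in _x_at, _s_at or _a_at, and -0.11 without the shared genes. For PP2 over DMSO (-0.37) these were, in the same order, -0.26, -0.38, -0.43, -0.33 and -0.29, and -0.30 with no detection filter. For abdominal over dorsal skin (0.58) they were 0.65, 0.62, 0.79, 0.52 and 0.44, with 0.56 for no detection filter. Without probe sets above 10000 on any array, a choice made after seeing the data, it was 0.91, with 11 of 25 genes higher (5.35% of all genes). Scaling to one median moved the median of all genes to 0.11 in PP2 over DMSO and to 0.11 in abdominal over dorsal skin. The list lay -0.37 and 0.54 from it both before and after. This scaling multiplies each array by a constant, so that distance could not change. Why the medians of the arrays differed was not tested. Over the single genes, 73 of 75 log2 ratios kept their side of 2-fold with either scaling and 72 of 75 over all detected probe sets.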

Other observations

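Of the brown and beige fat list, *Cidea* and *Elovl3*, described above, had the largest ratios, 5.64-fold and 4.61-fold higher in abdominal than in dorsal skin. *Pdgfra*, a receptor of adipocyte progenitors and fibroblasts, had 4439 on the PP2 array, 1778 on the abdominal DMSO array, 2398 on the virgin array and 2285 on the dorsal array. It was 2.50-fold higher with PP2, the 1 of 9 preadipocyte genes past 2-fold higher there (3.74% of all genes). None of the 9 was lower (0, against 4.89%), and their median log2 ratio with PP2 was 0.10. *Pi16* and *Dpp4*, markers of progenitors in the fascia, were 2.72-fold and 2.05-fold lower in pregnant than in virgin abdominal skin. They were 2 of the 9 preadipocyte genes (3.55% of all genes), and 0 were higher (3.41%). The median log2 ratio of the 9 was -0.43 there, while *Dlk1* (0.53), *Ccn5* (0.52) and *Zfp423* (0.10) lay above 0. The deiodinase gene *Dio2* had 248 with PP2, 116 on the abdominal DMSO array, 303 on the virgin array and 167 on the dorsal array. *Cox8b*, like *Ucp1*, was not called present on any array. Of 10 mammary epithelial genes, *Csn3*, *Csn1s1*, *Wap*, *Lalba* and *Elf5* were called present on 0 arrays. *Krt18* and *Epcam* were present on all 4, *Csn2* (β-casein) on 3, *Krt8* on 2 and *Cldn3* on 1. *Csn2* had 37.7 with PP2, 50.2 on the abdominal DMSO array, 23.8 on the virgin array, where it was absent, and 105 on the dorsal array, and was at least 2.11-fold higher in pregnant than in virgin abdominal skin.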
